A study of Mus musculus with 4 samples.

Results

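The genes described here are 9 stem cell niche factors of LEPR+ stroma, namely Lepr, Cxcl12, Kitl, Angpt1, Vcam1, Il7, Ptn, Thpo and Il15. They were found by symbol among 37310 annotated genes, and the counts of all transcripts of a gene were summed. The RNA came from Lin-LEPR+ bone marrow cells of wild-type male C57Bl/6 mice. Lin- stands for cells without Ter119, CD31 and CD45 on their surface, the markers used in the sort. Whole bone marrow is named as the source in the sample labels, which do not mention a sort. Mature mice were 3 months old and elderly mice were 24 months old, with 2 libraries per age. Mice of both ages were untreated as far as the labels and methods state. The titles of the labels number the libraries as single mice, whereas the methods describe pools of 3 or 4 mice for each group. The SDs below (n = 2) are between libraries, and if these are pools the variation from mouse to mouse is not seen.

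LEPR+ stromal cells lie around the sinusoids of the marrow and are known as a main source of the factors that hold and maintain hematopoietic stem cells. CXCL12 is the chemokine that retains stem and progenitor cells through CXCR4, and stem cell factor, the product of Kitl, maintains them through KIT. The same cells give rise to osteoblasts and adipocytes in the adult marrow, and LEPR itself is the receptor for the adipokine leptin.

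The 4 libraries held between 10472117 and 15650518 counts. Libraries of the same age differed by more than counting noise, since chi-square over its degrees of freedom came to 16.0 in the mature pair and 34.2 in the elderly pair. The ages were compared by edgeR's quasi-likelihood test on 22214 genes, and p-values were adjusted across these genes by the Benjamini-Hochberg method. A gene was called at an adjusted p under 0.05. Levels are CPM (counts scaled to library size) after scaling by the TMM factors, a normalization that assumes most genes to be alike between libraries. Fold changes are given on the log2 scale, so a value below 0 means a lower level in the elderly libraries.

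Reads had been counted per transcript, and only bases that belong to no other transcript contributed, since all 25621 transcripts without such bases of their own had 0 counts. For the niche factors this set which part of a gene was measured, and the sequences below show the places where it matters most. Lepr transcripts share their exons up to the end of exon 18 and then differ in the coding tail, which separates the long signalling form (Lepr-001) from the short forms (Lepr-004 and Lepr-002). The lines give the last 15 shared bases in lower case and the bases that follow in capitals, which are the first 30 for Lepr-001 and the whole tail with its stop codon for the others. The capitals lie on the plus strand at chr4:101487053-101487082, chr4:101483953-101483970 and chr4:101464676-101464687 of NCBIM37 (mm9), and the sequences were read from the GENCODE M1 transcripts.
Lepr-001: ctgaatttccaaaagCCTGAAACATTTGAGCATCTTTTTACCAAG
Lepr-004: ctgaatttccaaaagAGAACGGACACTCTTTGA
Lepr-002: ctgaatttccaaaagGTCACTGTTTAA

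None of these 3 tails was itself countable, because other annotated transcripts overlap each of them. Lepr-004 had 2214 own bases, all in its 3′ UTR (chr4:101484059-101486272), and they gave 98.7% of the counts of Lepr. Lepr-002 had 102 own bases in its 3′ UTR. Lepr-001, with a coding length of 3486 bases, had 0 own bases and 0 counts in every library, so the long signalling form was not measured. The level of Lepr below is therefore the level of 1 stretch of 3′ UTR that the annotation gives to a short form.

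Kitl has a similar split. Exon 6 encodes the main site at which the membrane-bound protein is cut and released, and transcripts without it encode the form that stays on the membrane. The exon (84 bases, in capitals, with 12 spliced bases on each side) lies at chr10:99543491-99543574 on the plus strand, and the second line gives the junction that skips it.
Kitl-001: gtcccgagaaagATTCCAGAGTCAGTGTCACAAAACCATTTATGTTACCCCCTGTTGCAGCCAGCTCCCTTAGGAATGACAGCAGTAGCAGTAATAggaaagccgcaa
Kitl-002: gtcccgagaaagggaaagccgcaa

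Kitl-002, the transcript without exon 6, had 0 own bases and 0 counts. Kitl-001 had 4211 own bases, of which 4015 are 3′ UTR and 196 are 5′ UTR, and it held 99.6% of the counts of Kitl. Exon 6 itself held no countable base, so the soluble and membrane-bound forms could not be told apart from these counts.

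**Figure D1:**
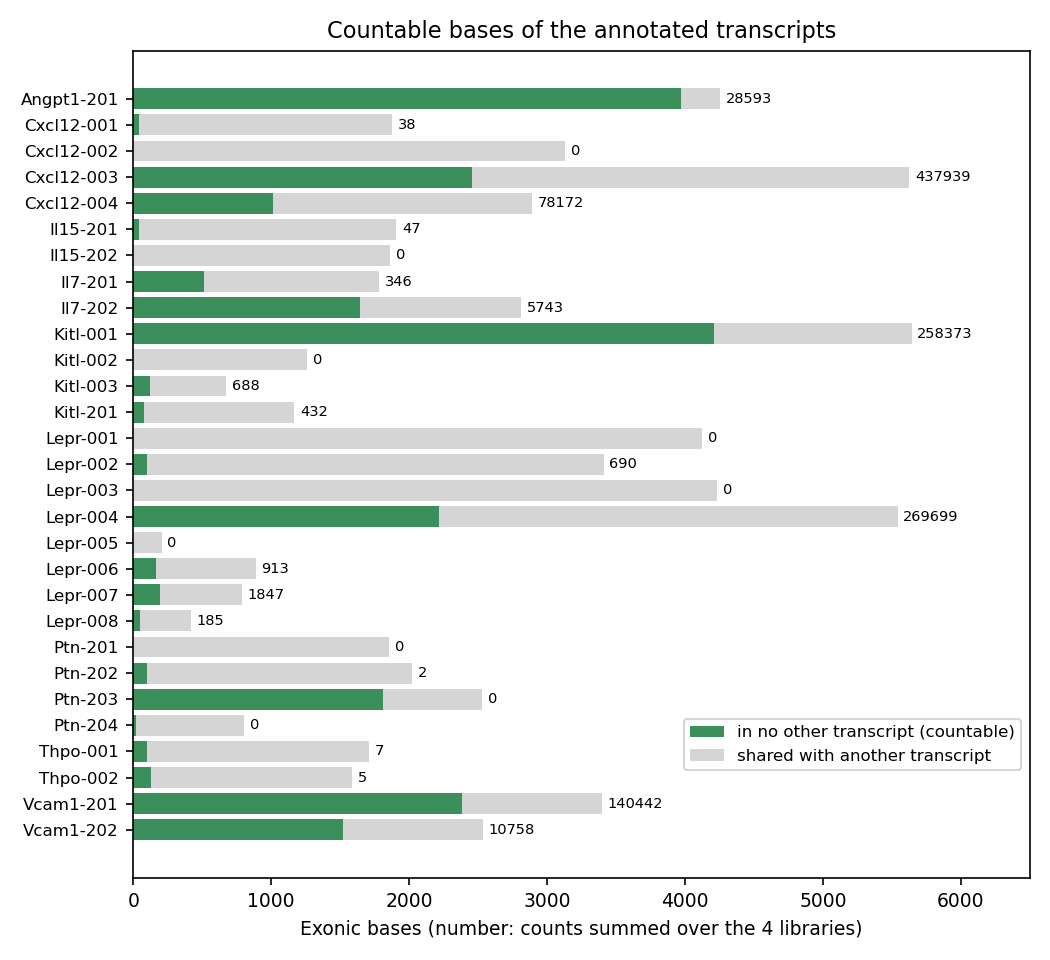
Exonic bases of each annotated transcript of the 9 genes, split into bases that no other transcript holds (green) and shared bases (grey), with the counts summed over the 4 libraries printed at the end of each bar. Transcripts with no green part, such as Lepr-001 and Kitl-002, have 0 counts, and Il15-201 was measured on 45 bases.

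Lepr (ENSMUSG00000057722, chr4:101390009-101487957, plus strand) was read at 6419 and 5665 CPM in the mature libraries and at 4121 and 5708 CPM in the elderly libraries. The second elderly library lay between the mature ones, so the ages overlapped. The means were 6042 ± 533 CPM (SD, n = 2) and 4915 ± 1122 CPM (SD, n = 2). This gave a log2 fold change of -0.30 (SE 0.21, 95% interval -0.75 to 0.15, adjusted p = 0.669 by edgeR). Without elderly replicate 1 the log2 fold change was -0.05, and without elderly replicate 2 it was -0.55. In a bulk sample such as this, fewer cells that express a gene and less RNA of it per cell cannot be told apart.

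Cxcl12 (ENSMUSG00000061353, chr6:117118553-117131385, plus strand) was read at 11723 and 13713 CPM in mature and at 7208 and 9216 CPM in elderly libraries. Both elderly libraries lay below both mature ones. The means were 12718 ± 1407 CPM (SD, n = 2) and 8212 ± 1420 CPM (SD, n = 2), and the log2 fold change of -0.63 (SE 0.20, 95% interval -1.07 to -0.19) had an unadjusted p of 0.00845 by edgeR. The adjusted p of 0.177 missed the threshold. Cxcr4, the receptor through which CXCL12 holds hematopoietic cells in the marrow, was read at 23.6 and 8.88 CPM in mature and at 56.1 and 38.7 CPM in elderly libraries, with a log2 fold change of 1.54 (adjusted p = 0.0595 by edgeR), and it was called higher at 10 of the 16 other settings tried. The other receptor, Ackr3 (Cxcr7 in the annotation), which scavenges the chemokine, stayed between 0.865 and 2.24 CPM, over a number of countable bases not given here.

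Kitl (ENSMUSG00000019966, chr10:99478264-99563047, plus strand) was almost equal in the mature libraries, at 5709 and 5702 CPM. The elderly libraries gave 3679 and 5633 CPM, so that both were lower, the second by only a small margin. The log2 fold change was -0.29 (SE 0.22, 95% interval -0.77 to 0.18, adjusted p = 0.702 by edgeR). Without elderly replicate 1 it was 0.0086, on the other side of 0. Kit, the receptor of stem cell factor and a marker of hematopoietic stem and progenitor cells, was read at 1.17 CPM or less in every library. Its countable bases are not given here, so the low counts are not read as low expression.

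Angpt1 encodes angiopoietin-1, a ligand of the TIE2 receptor of endothelial and stem cells, and lies at chr15:42256273-42508523 on the minus strand (ENSMUSG00000022309). It was read at 743 and 643 CPM in mature and at 315 and 590 CPM in elderly libraries, all elderly values being below all mature ones. The log2 fold change was -0.61 (SE 0.26, 95% interval -1.18 to -0.05, unadjusted p = 0.0360, adjusted p = 0.387 by edgeR). This value depended on the first elderly library, since the log2 fold change was -0.20 without elderly replicate 1 and -1.13 without elderly replicate 2. Angpt1 has 1 annotated transcript with 3973 own bases, so it was the niche factor measured over the largest part of its length. Tek, which encodes TIE2, had 58 own bases and 0 counts and was not tested.

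Vcam1 (ENSMUSG00000027962, chr3:115812938-115832606, minus strand) encodes the adhesion molecule that binds integrin alpha4 on blood cells. It was read at 3508 and 3285 CPM in mature and at 1960 and 3307 CPM in elderly libraries, and the ages overlapped. The log2 fold change was -0.37 (SE 0.24, 95% interval -0.88 to 0.15, adjusted p = 0.652 by edgeR). Without elderly replicate 1 it was -0.01. The integrin chain genes Itga4, at 3.37, 1.98, 6.94 and 3.19 CPM in the 2 mature and 2 elderly libraries, and Itgb1, at 234, 244, 156 and 243 CPM, did not pass the test, with adjusted p of 0.555 and 0.750 by edgeR. Itgb7, the other partner chain of alpha4, was at 16.0 and 12.9 CPM in mature and at 32.5 and 26.6 CPM in elderly libraries (log2 fold change 1.03, adjusted p = 0.0676 by edgeR), and was called higher at 8 of the 16 other settings.

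Il7 (ENSMUSG00000040329, chr3:7572036-7613722, minus strand) encodes interleukin-7, the cytokine on which B-cell progenitors of the mouse marrow depend. It was the niche factor with the smallest difference, at 121 and 128 CPM in mature and at 102 and 135 CPM in elderly libraries. The elderly values lay on both sides of the mature ones. The log2 fold change was -0.07 (SE 0.20, 95% interval -0.52 to 0.37, adjusted p = 0.947 by edgeR). Il7r, the receptor chain specific to lymphoid cells, was read at 7.70, 5.43, 20.6 and 8.72 CPM in the same order (log2 fold change 1.15, adjusted p = 0.240 by edgeR).

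The other 3 genes were read from few countable bases or few counts, and a low count was not taken as low expression. Thpo (chr16:20725231-20734584), which encodes thrombopoietin, a growth factor of megakaryocytes, had 221 own bases in its 5′ UTRs and 4, 3, 3 and 2 counts in the mature and elderly libraries. Il15 (chr8:84855536-84927121), a cytokine of NK cells and memory T cells, had 45 own coding bases and 20, 11, 8 and 8 counts. Both elderly libraries were below both mature ones for Il15, with a log2 fold change of -1.11 (SE 0.74, adjusted p = 0.667 by edgeR). For Thpo the SE of 1.45 exceeded the log2 fold change of -0.60 (adjusted p = 0.940 by edgeR).

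Ptn (chr6:36665663-36761361), which encodes the heparin-binding growth factor pleiotrophin, had 1, 0, 0 and 1 counts and did not pass the filter on low counts. Its transcript Ptn-203 had 1809 own bases, of which 1792 are 3′ UTR, and 0 counts. The coding transcript Ptn-201 had 0 own bases and was not measured, and Ptn-202 had 100. For Ptn-203 a count of 0 allows a level of up to 0.259 CPM in either mature library and up to 0.270 and 0.195 CPM in the elderly ones, the level of 3 counts, over its own bases only.

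**Figure D2:**
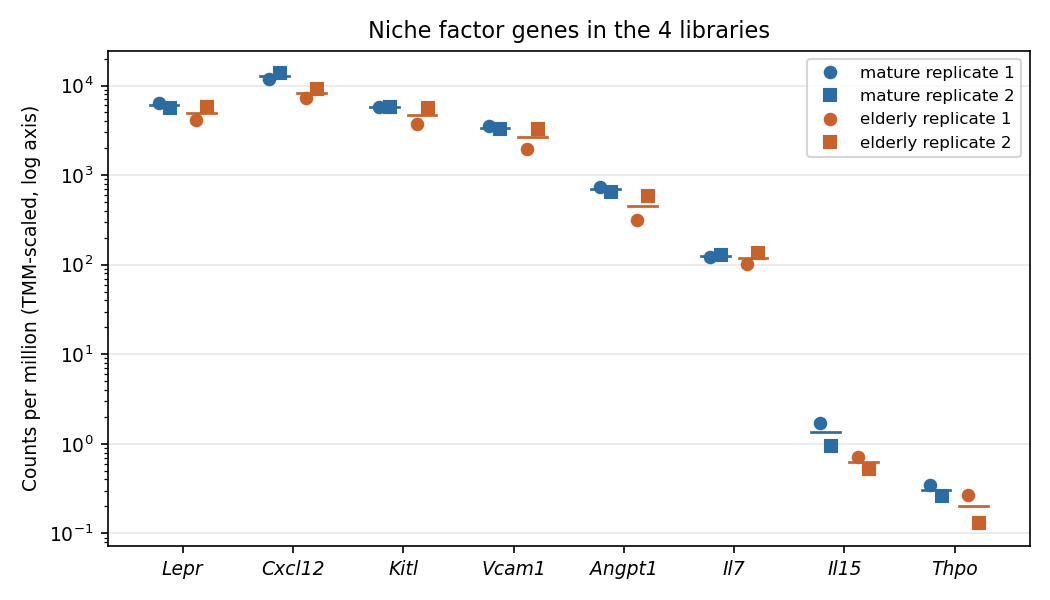
CPM of 8 niche factors on a log axis, with circles for replicate 1, squares for replicate 2, blue for mature and orange for elderly, and a line at the mean of each age. Elderly replicate 1 is the lowest point of Lepr, Cxcl12, Kitl, Vcam1, Angpt1 and Il7, and elderly replicate 2 lies near the mature libraries for all of these but Cxcl12.

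Of the 8 niche factors tested by edgeR, 0 were called in either direction, against 0.423% of all genes called lower, 1.94% called higher and 2.36% called in either direction in elderly libraries. At an unadjusted p under 0.05 there were 2, Cxcl12 and Angpt1, both lower, against 3.83% of all genes lower, 7.1% higher and 10.9% in either direction at that threshold. DESeq2 also called 0 and had 2 at the unadjusted threshold, and edgeR's exact test with a fixed dispersion of 0.2 had 0 at either. Of all 22214 genes, DESeq2 called 706 and the exact test 208. The log2 fold change was below 0 for all 8, against 50.4% of all genes and 55% of genes with a mean of at least 50 CPM. The libraries of the ages did not overlap, with the elderly ones lower, for 4 of the 8 (Cxcl12, Kitl, Angpt1 and Il15), against 18.9% of all genes and 24% of genes with a mean of at least 50 CPM. They did not overlap with the elderly ones higher for 0 of the 8, against 22% of all genes. Of the 4, Kitl was apart by only 5633 against 5702 CPM, and Il15 by 8 against 11 counts. With the scaling of the fit over transcripts, Kitl-001 overlapped, at 5531 and 5598 CPM in mature and at 3615 and 5899 CPM in elderly libraries. The median log2 fold change was -0.48 over the 8 and -0.33 over the 6 with over 100 CPM, beside -0.0059 over all genes tested and -0.03 over genes with at least 50 CPM.

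Much of the spread lay between the elderly libraries. Elderly replicate 1 was the lowest of the 4 libraries for 6 of the 6 niche factors with over 100 CPM, against 45.1% of genes with at least 50 CPM, and it had between 21.8% and 46.6% fewer CPM than elderly replicate 2. The smallest such gap belonged to Cxcl12 and the largest to Angpt1. Without elderly replicate 2 the unadjusted p was under 0.05 for 5 niche factors, and without elderly replicate 1 for 0. With either elderly library left out edgeR called 0 genes of the whole table, in fits where the lone library is assumed to vary like the mature ones.

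**Figure D3:**
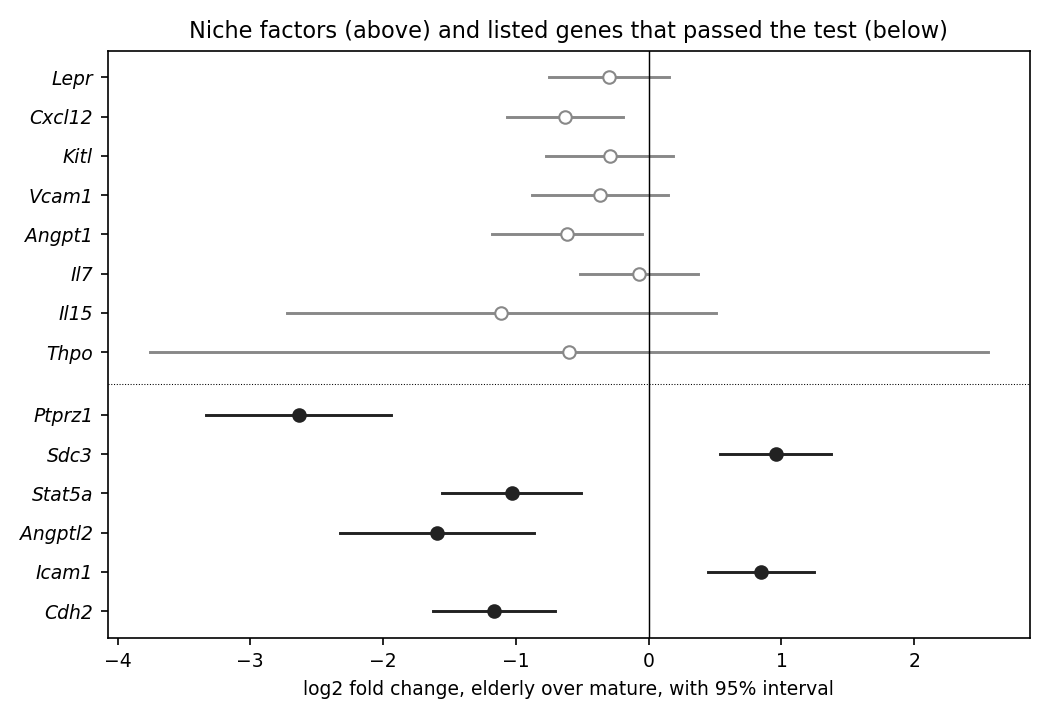
Log2 fold change of elderly over mature with its 95% interval from edgeR for the 8 niche factors tested (above the dotted line) and for genes of the receptor, LEPR signalling and other niche factor lists that were called (below it), Il2rb left out for its low counts. Open grey points are not called and filled black points are called, and the intervals of Cxcl12 and Angpt1 are the only ones of the niche factors that stay below 0.

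**Figure D4:**
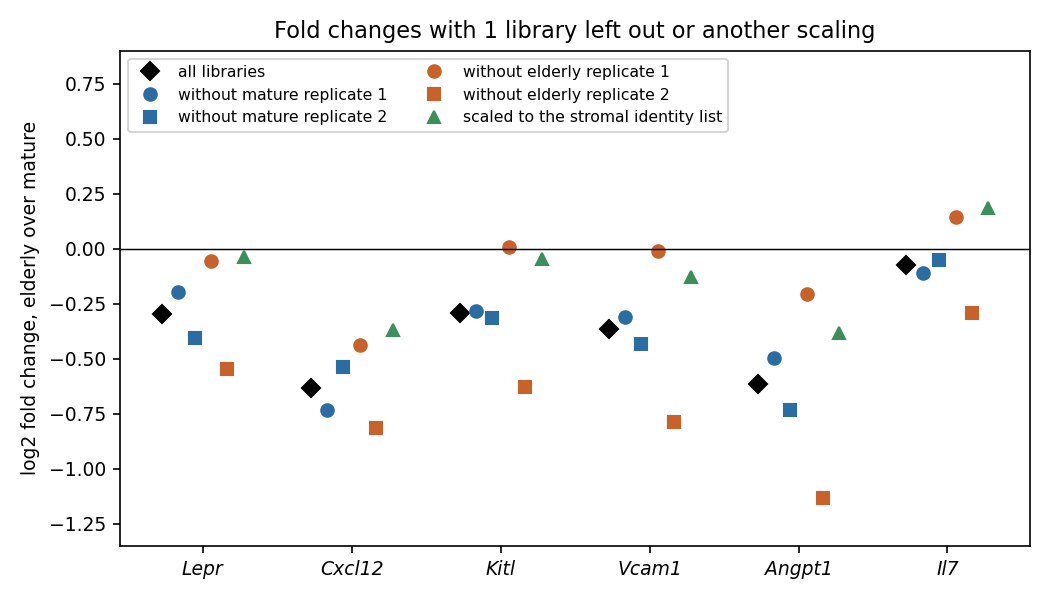
Log2 fold change of elderly over mature for the 6 niche factors with over 100 CPM, from all 4 libraries, with each library left out in turn, and with libraries scaled to the summed counts of the stromal identity list. Orange circles and squares lie on either side of the value from all libraries. Lepr, Cxcl12, Vcam1 and Angpt1 stay below 0 at every setting plotted, though Lepr and Vcam1 come as near as -0.04 and -0.01. Kitl and Il7 cross 0.

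The levels of the other factors were also set against Lepr within the same library. The log2 ratio of Kitl to Lepr was -0.17 and 0.01 in mature and -0.16 and -0.02 in elderly libraries, a difference of -0.01 between the means. Vcam1 was at -0.87 and -0.79 in mature and at -1.07 and -0.79 in elderly libraries. The ages overlapped for both of these.

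Cxcl12 had a log2 ratio to Lepr of 0.87 and 1.28 in mature and of 0.81 and 0.69 in elderly libraries, so the elderly libraries were lower by 0.32 in the mean without overlap. For Angpt1 the log2 ratio was -3.11 and -3.14 in mature and -3.71 and -3.27 in elderly libraries, a difference of -0.37. The log2 ratio of Il7 to Lepr moved the other way, from -5.73 and -5.46 to -5.34 and -5.40, a difference of 0.23, also without overlap. These ratios are descriptions, because an exact permutation test of 2 libraries against 2 cannot give a p below 0.333. The same 0.333 is the rate at which 2 libraries and 2 others do not overlap when age makes no difference. The share of all genes whose ratio to Lepr did not overlap was not taken.

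Levels were compared between genes per kilobase of own bases of the transcript with most counts. Cxcl12 stood highest, at 4345 ± 510 CPM per kilobase (SD, n = 2) in mature and 2880 ± 488 (SD, n = 2) in elderly libraries. Lepr followed, at 2687 ± 238 and 2195 ± 503 CPM per kilobase, and was below Cxcl12 in each of the 4 libraries, although the elderly ranges of the pair overlapped. Kitl and Vcam1 did not differ beyond their spread, at 1348 ± 2.17 and 1334 ± 36.6 CPM per kilobase in mature libraries and at 1101 ± 329 and 1021 ± 372 in elderly ones. Angpt1 was about an order of magnitude lower, at 174 ± 17.8 and 114 ± 49.0 CPM per kilobase, and Il7 was at 70.1 ± 2.53 and 69.1 ± 14.3 CPM per kilobase. No place in this order was given to Il15, Thpo and Ptn.

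In the fit over 42413 transcripts, of which 1.66% were called, 0 transcripts of the niche factors were called by edgeR, and 6 had an unadjusted p under 0.05, all lower, against 3.14% of all transcripts. The lowest of these p, 0.00271, belonged to Cxcl12-004, a transcript with a retained intron whose 1016 own bases lie shortly before those of Cxcl12-003. It was read at 1886 and 2128 CPM in mature and at 971 and 1358 CPM in elderly libraries, with a log2 fold change of -0.79 (SE 0.23, adjusted p = 0.113 by edgeR). Cxcl12-003, which held 84.8% of the counts of the gene, had a log2 fold change of -0.53 (SE 0.23, adjusted p = 0.473 by edgeR). Their difference within the gene did not pass a test of transcript shifts (shift of Cxcl12-004 of -0.22 on the log2 scale against the gene's average, unadjusted p = 0.445 by edgeR).

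Minor transcripts of Lepr gave lower values than the main one. Lepr-002, another short form, was read at 16.5 and 19.7 CPM in mature and at 8.11 and 11.8 CPM in elderly libraries, a log2 fold change of -0.86 (SE 0.32, adjusted p = 0.298 by edgeR). The noncoding Lepr-007, with 195 own bases, went from 46.7 and 45.4 CPM to 26.8 and 31.2 CPM, a log2 fold change of -0.67 (adjusted p = 0.365 by edgeR). The noncoding Lepr-008 had 51 own bases and a log2 fold change of -1.19 (adjusted p = 0.313 by edgeR). For all 3 the elderly libraries were below the mature ones, whereas Lepr-004 overlapped between the ages with a log2 fold change of -0.23.

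Il7 also had unequal transcripts. Il7-202, which held 94.3% of the counts, had a log2 fold change of 0.04 (SE 0.25), while Il7-201, measured on 512 bases of 5′ UTR, was read at 8.33 and 10.2 CPM in mature and at 4.55 and 5.19 CPM in elderly libraries (log2 fold change -0.93, SE 0.36, adjusted p = 0.350 by edgeR). Of 28422 transcripts in the test of shifts within a gene, 0 were called and 2.84% had an unadjusted p under 0.05. Il7-201 was among the latter with a shift of -0.91 (unadjusted p = 0.0283 by edgeR) and Lepr-008 with a shift of -0.95 (unadjusted p = 0.0486 by edgeR), both with an adjusted p of 1.00.

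Receptors of the niche factors' ligands were read in the same libraries, from a list of 15 genes of which 13 were tested. By edgeR 1 was called lower and 2 were called higher, against 0.423% and 1.94% of all genes. Ptprz1, a receptor tyrosine phosphatase that binds pleiotrophin, was at 24.3 and 17.1 CPM in mature and at 3.25 and 3.38 CPM in elderly libraries, and fell by 2.64 on the log2 scale (SE 0.32, adjusted p = 0.0018 by edgeR). Sdc3, a syndecan that also binds pleiotrophin, rose from 68.5 and 78.6 CPM to 140 and 145 CPM (log2 fold change 0.96, SE 0.19, adjusted p = 0.0227 by edgeR).

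Il2rb, the receptor chain that IL-15 shares with IL-2 on NK and T cells, had 1 count in each mature library and 61 and 22 counts in the elderly ones (adjusted p = 0.0156 by edgeR). The ratio of its summed counts, after scaling to the TMM-scaled library sizes, was 36.3, with an exact 95% interval for counting error of 9.74 to 305. The size rested on elderly replicate 1, without which the fitted log2 value was 3.93 in place of 5.15, and without elderly replicate 2 it was 5.83. Il2rb was called at 14 of the 16 other settings. The remaining settings left out an elderly library and cannot decide this, because they called no gene at all. Il15ra, which presents IL-15 to neighbouring cells, was between 3.07 and 4.85 CPM in all libraries, over a number of countable bases not given here.

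LEPR signalling was covered by 17 listed genes, of which 16 were tested. Of the 16, 1 was called lower and 0 were called higher by edgeR, against 0.423% and 1.94% of all genes. The ligand gene Lep had 3029 own bases and 0 counts in every library. Stat5a, a transcription factor that LEPR and other cytokine receptors activate, was called lower, at 46.2 and 51.4 CPM in mature and at 27.6 and 20.2 CPM in elderly libraries (log2 fold change -1.03, SE 0.24, adjusted p = 0.0460 by edgeR). It stayed called at 9 of the 16 other settings. The other 15 were not called. Among these Stat3, the main transducer of the long form of LEPR, went from 134 and 105 CPM to 96.4 and 66.0 CPM (log2 fold change -0.56, adjusted p = 0.360 by edgeR). Socs3, a feedback inhibitor that STAT3 induces, had the highest CPM of the list, at 2915 and 1764 CPM in mature and at 1837 and 2187 CPM in elderly libraries, with overlap between the ages (adjusted p = 0.830 by edgeR). The median log2 fold change of the list was -0.10.

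Of 22 other factors and adhesion molecules of the niche, all tested by edgeR, 2 were called lower and 1 was called higher, against 0.423% and 1.94% of all genes. Cdh2, the gene of N-cadherin, was at 216 and 155 CPM in mature and at 81.4 and 84.0 CPM in elderly libraries (log2 fold change -1.16, SE 0.21, adjusted p = 0.0142 by edgeR). Angptl2, which encodes a secreted angiopoietin-like protein, was at 75.7 and 74.7 CPM in mature and at 14.2 and 35.3 CPM in elderly libraries (log2 fold change -1.59, SE 0.33, adjusted p = 0.0286 by edgeR), with a log2 fold change of -1.07 without elderly replicate 1 and of -2.40 without elderly replicate 2. Icam1, an adhesion molecule that binds leukocyte integrins, rose from 358 and 390 CPM to 641 and 705 CPM (log2 fold change 0.85, SE 0.18, adjusted p = 0.0324 by edgeR). The median log2 fold change of this list was 0.20, above 0, and 9 of its 22 genes had a log2 fold change below 0, against 50.4% of all genes.

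Markers of the stromal cells themselves were taken as a list of 18 genes that holds none of the niche factors, with transcription factors such as Ebf3 and Foxc1 and secreted proteins such as Adipoq and Igfbp5. Their summed level was 43140 and 40855 CPM in mature and 30336 and 39609 CPM in elderly libraries. By edgeR 0 of the 18 were called in either direction, 16 had a log2 fold change below 0 (50.4% of all genes and 55% of those with at least 50 CPM), and the median was -0.40. Both elderly libraries were below both mature ones for 10 of the 18 (18.9% of all genes and 24% of those with at least 50 CPM) and above them for 1, Igfbp5. Elderly replicate 1 was the lowest library for 14 of the 18, as it was for the niche factors. At an unadjusted p under 0.05 there were 7, all lower (3.83% of all genes). DESeq2 called 1 of the 18 (Dpep1, a membrane dipeptidase, lower) and the exact test 0, against 706 and 208 of all 22214 genes called by them.

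When the libraries were scaled to the summed counts of this stromal list, the log2 fold change was -0.04 for Lepr, -0.05 for Kitl, -0.13 for Vcam1 and 0.19 for Il7. For Cxcl12 it was -0.37 (adjusted p = 0.0501 by edgeR, within a range of 0.0501 to 1.00 over all alternatives) and for Angpt1 -0.38 (adjusted p = 0.385 by edgeR, range 0.0366 to 1.00). The same scaling moved the median of all genes to 0.28.

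Summed markers of several blood cell types were higher in both elderly libraries of these sorted cells, though not those of megakaryocytes. The summed level of the 8 tested B-lineage markers, led by Ighm, was 90.6 and 47.5 CPM in mature and 836 and 827 CPM in elderly libraries. Most of this was Ighm, and the other B-lineage markers summed to 15.1 and 13.4 CPM in mature and to 30.4 and 20.3 CPM in elderly libraries. Erythroid markers, led by Slc4a1, were at 345 and 145 CPM in mature and at 1027 and 1003 CPM in elderly libraries. Neutrophil markers, led by S100a8, were at 2030 and 1166 CPM in mature and at 4401 and 4212 CPM in elderly libraries.

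By edgeR 5 of 9 tested erythroid, 5 of 9 neutrophil, 4 of 9 macrophage, 2 of 5 plasma cell and 1 of 8 B-lineage genes were called higher, against 1.94% of all genes. Of 7 T and NK, 10 megakaryocyte and 9 endothelial genes tested, 0 were called in either direction. Macrophage markers, led by Mrc1, summed to 26.7 and 26.5 CPM in mature and to 52.7 and 87.3 CPM in elderly libraries, and those of T and NK cells, led by Cd4, to 4.50, 6.29, 20.2 and 10.5 CPM in the same order. Plasma cell markers, led by Sdc1, summed to between 117 and 159 CPM. Igj, the gene of the antibody joining chain, rose from 4.59 and 2.41 CPM to 53.6 and 59.5 CPM (adjusted p = 0.000124 by edgeR). Prdm1 rose from 0 counts in both mature libraries to 4.06 and 3.32 CPM (adjusted p = 0.00286 by edgeR). Sdc1 went from 77.0 and 63.3 CPM down to 42.4 and 54.7 CPM. Xbp1 went from 58.6 and 51.5 CPM down to 45.3 and 41.4 CPM, and neither was called. The median log2 fold change of the 5 tested plasma cell genes was -0.07, and 3 of them were below 0. Endothelial markers, led by Pecam1, were between 34.3 and 47.1 CPM. Megakaryocyte markers, led by Ppbp, were at 25.1 and 266 CPM in mature and at 119 and 205 CPM in elderly libraries. Ptprc, the gene of the CD45 protein used to remove blood cells in the sort, was at 1.08 CPM or less in every library. It was at 0.346 and 0.0862 CPM in mature and at 1.08 and 0.521 CPM in elderly libraries (log2 fold change 1.83, adjusted p = 0.644 by edgeR). The number of its countable bases is not given here, so the low counts are not read as low expression.

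Osteoblast markers, led by Ibsp, were at 7130 and 6490 CPM in mature and at 2291 and 4198 CPM in elderly libraries, with Ibsp, the gene of bone sialoprotein, called lower (log2 fold change -1.41, adjusted p = 0.0332 by edgeR). That fall was of Ibsp alone, since the other 9 markers summed to 499 and 550 CPM in mature and to 840 and 907 CPM in elderly libraries, and 2 of them, Phex and Col1a1, were called higher. The median log2 fold change of the 10 was 0.0035. The part of these other cell types in the values of the niche factors and their receptors was not tested.

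The genes whose levels followed those of Lepr, Cxcl12 and Kitl most closely were sought among 3016 other genes with a mean of at least 50 CPM, by the Euclidean distance of centred log2 CPM over the 4 libraries. For Lepr these were Calu, Ccbe1 and Fos, at distances of 0.034, 0.034 and 0.036. For Cxcl12 they were Tspan14, Fut11 and Ptplb, at 0.083, 0.14 and 0.14. For Kitl, Atxn7l3b and Apbb2 were among them, at 0.024 and 0.045. With 4 libraries many genes follow any given pattern, and these distances are a description.

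Promoters of 300 bases (RefSeq, GRCm38.p6, 250 bases before to 50 after a gene's start) were matched for 5 of the 9 genes, Lepr, Ptn, Cxcl12, Kitl and Thpo. The EBF motif TCCCNNGGG, the STAT motif TTCNNNGAA and the forkhead motif GTAAACA were searched on both strands with overlaps allowed. Of 32851 promoters 6.56%, 8.30% and 3.65% held a match to them. Ptn held 1 EBF match, and the windows of the other 4 genes held none of these letters.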

How the data were processed

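Bone marrow cells of mature and elderly mice were analysed in 4 libraries, 2 per age, grouped by the titles of the labels, which number the replicates. The methods describe poly(A) selection but exempt some samples, which they name in abbreviated form and for which total RNA was used. An exempted sample is named by an age in weeks close to that of the mature mice. Whether any of these 4 libraries is among them is not said, and if a mature library was, RNA selection and age cannot be told apart. The authors ran FASTQC, CutAdapt, HISAT2 on NCBI Build 37 (mm9) and featureCounts. They deposited raw read counts per Ensembl transcript, without a filter. The sources used here state neither the strand setting nor the handling of shared bases, so reads of overlapping genes on opposite strands may not be told apart.

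Counts were summed per gene with GENCODE M1, leaving out 388 transcripts that it lacks (0.0785% to 0.0888% of counts). Genes with a sum over 2 were kept, TMM factors were applied, and ages were compared by edgeR 4.0.16 (quasi-likelihood, 2-sided, limma 3.58.1, R 4.3.3, no covariate, prior count 0.125), with Benjamini-Hochberg adjustment. Intervals are 95%. The limit for a count of 0 is 3 counts, and limits and counting intervals cover counting error only. Transcripts were tested in the same way, and shifts within genes with diffSpliceDGE, against the gene's average. DESeq2 1.42.0 and the exact test were alternatives. The tests were tested on simulated data. All niche factors, called genes of the niche, receptor, LEPR signalling and stromal lists, and the 3 genes most like Lepr, Cxcl12 and Kitl were named, apart from some that are not reported here. The genes and lists were chosen with earlier results of these data known.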

Additional observations from a re-analysis of the deposited data

How the results depend on the processing

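The elderly libraries differed most from each other, and 2 libraries per age give wide intervals, so differences of the size seen for Lepr, Kitl and Vcam1 were not detectable here. Over 8 niche factors and up to 16 alternatives, 122 of 127 log2 fold changes kept their direction and their side of the threshold. With 0 niche factors called from all libraries, a side could change only by a new call. The fits with an elderly library left out called no gene, so they could not show such a change. DESeq2 gave no adjusted p for Thpo and Il15, which were counted as not called. The direction turned for Kitl without elderly replicate 1 (0.0086) and for Il7 without elderly replicate 1 (0.14), scaled to the stromal list (0.19) and by its transcript with most counts (0.043). With a library left out the values ran from -0.63 to 0.0086 for Kitl and from -0.29 to 0.14 for Il7. With the replicate number of the titles as a block, Angpt1 alone was called among the niche factors, making 1 called lower (log2 fold change -0.68, adjusted p = 0.0366 by edgeR, range over alternatives 0.0366 to 1.00). The replicate numbers did not show a pairing (correlation of deviations 0.031 over 3017 genes), and the block changed the calls of all genes from 524 to 1276. Niche factor transcripts called were 1 with library size only and 1 with the block, in both cases Cxcl12-004 (adjusted p = 0.0248 and 0.0316 by edgeR), and 0 at the other settings.

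Of the receptor, LEPR signalling, other niche and stromal lists, 4 genes were called lower and 3 higher. Those called lower numbered 1 with the exact test, 8 with the block and 0 to 3 with a library left out. Those called higher numbered 5 with library size only, 10 scaled to the stromal list, 10 with no filter, 6 with protein-coding genes only, 6 with DESeq2, 1 with the exact test, 6 with the robust fit, 10 with the block, 6 by the transcript with most counts and 0 to 3 with a library left out. Calls over all genes numbered 208 with the exact test, 1084 with no filter, 879 with the robust fit, 985 scaled to the stromal list, and 0 without elderly replicate 1 or without elderly replicate 2, where 1 library stood for its age. Library size only gave 629 calls over all genes, protein-coding genes only 663, DESeq2 706 and the transcript with most counts 669. The cause of these changes was not tested.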
